A study of Mus musculus and Rattus norvegicus with 79 samples.

Results

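The 76 mouse genes for proteins of the cytosolic ribosome, 30 of the small (40S) and 46 of the large (60S) subunit, are described here in liver RNA sequencing, out of 24790 genes in 2 experiments. They were chosen by symbol alone: Rpl or Rps with a number and an optional a or x, plus Rplp0, Rplp1, Rplp2 and Rpsa, without pseudogenes, S6 kinases or the near copies whose symbols end in l. The first experiment holds 27 polyA libraries of C57BL/6 liver. Unfed livers were taken at Zeitgeber time (ZT, hours after lights on) 10, and fed and unfed livers at ZT13, ZT14, ZT18 and ZT22, in 9 groups of 3 libraries. The other experiment, of 36 libraries made after removal of ribosomal RNA, used Nr3c1fl/fl mice, whose glucocorticoid receptor gene Nr3c1 has both alleles flanked by loxP sites. These mice had received AAV-tbg-GFP (called GFP livers) or AAV-tbg-CRE (CRE livers) 10 days earlier, and made up 12 groups of 3. Unfed livers came from ZT10 and from ZT12, the fed ones from ZT13, 14, 18 and 22. All mice lived in 12 h light and 12 h dark and had been trained to eat at night, and their age and sex are not stated in the labels. The tbg promoter acts in hepatocytes, so the other liver cells keep the gene, and in these mice food and hour change together and cannot be told apart. The labels do not say that the replicates of a group are separate mice, so p-values measure the spread between these samples, which may be technical. Liver is a mixture of cells, and fewer cells of a type and less RNA per cell cannot be told apart.

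Each ribosome carries 1 copy of nearly every ribosomal protein, except the paired stalk proteins P1 and P2, so that cells make the members in matched amounts and degrade the excess. The small subunit reads the mRNA, and the large subunit joins amino acids and releases the chain through its exit tunnel. The mRNAs of these proteins typically begin with a C followed by a run of C and T (the terminal oligopyrimidine, or TOP, element). Food and insulin act on such mRNAs mainly through mTORC1, a kinase complex that raises their translation. In liver a meal is therefore known for moving ribosomal protein mRNAs onto ribosomes, which RNA sequencing of total or polyA RNA does not measure.

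RefSeq gave a promoter for 56 of the 76 members (build GRCm38.p6). The sequences below run from 30 bases before the annotated start of transcription to 20 bases after, with the longest run of C or T between 10 bases before and 20 bases after the start in capitals. The first 5 are members among the largest average rises with food. They are followed by Rps21, lower in CRE livers, Rps6, the S6 kinase target, and Rplp0, which did not pass the test in either experiment.
Rpl11 (chr4:136053374-136053423, minus strand): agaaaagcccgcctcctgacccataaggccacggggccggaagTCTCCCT
Rpl41 (chr10:128549149-128549198, minus strand): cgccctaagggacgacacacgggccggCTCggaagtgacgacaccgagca
Rpl35 (chr2:39005112-39005161, minus strand): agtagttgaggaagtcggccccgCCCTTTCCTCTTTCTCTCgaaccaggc
Rpl36a (chrX:134585624-134585673, plus strand): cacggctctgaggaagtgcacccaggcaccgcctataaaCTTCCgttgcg
Rpl12 (chr2:32961682-32961731, plus strand): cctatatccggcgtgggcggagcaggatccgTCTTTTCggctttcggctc
Rps21 (chr2:180257349-180257398, plus strand): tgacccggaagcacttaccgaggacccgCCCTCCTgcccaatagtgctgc
Rps6 (chr4:86857348-86857397, minus strand): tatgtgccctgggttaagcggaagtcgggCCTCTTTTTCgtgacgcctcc
Rplp0 (chr5:115559437-115559486, plus strand): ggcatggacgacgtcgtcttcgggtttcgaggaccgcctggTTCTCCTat
The annotated start of Rpl35, Rps21 and Rps6 is a C inside their run, as in a TOP element. The run of Rpl11, Rpl12, Rpl36a and Rplp0 lies downstream of the annotated start and the short run of Rpl41 upstream.

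A run of at least 5 C or T counted from the start itself was found in 15 of the 56 members (26.8%) and in 4.10% of the 11604 other tested genes with a promoter. With C as the first base the shares were 21.4% (12 members) and 2.35%. A run of at least 8 within 10 bases before to 20 after the start was held by 20 members (35.7%) and by 11.4% of the others. The ETS core CCGGAAG stood on either strand within 250 bases before to 50 bases after the start of 22 members (39.3%), against 16.7% of other genes. AAGATGG, a core of the YY1 site, was in 8 members (14.3%) against 7.04%. CACGTG, the E-box bound by Myc and by clock factors, was in 5 (8.93%) against 9.82%, TATAAA in 5 (8.93%) against 7.64%, and the GC box GGGCGG in 33 (58.9%) against 60.7%. AGAACA, the hexamer that glucocorticoid receptor sites hold as an inverted pair, was in 8 (14.3%) against 13.1%. All were searched on both strands, neighbouring matches may share end letters (the AAG of CCGGAAG and AAGATGG), and a match describes the sequence only. The annotated start of 1 RefSeq transcript was used, and 8 members had several.

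All 76 members passed the filter on low counts in both experiments, among 14744 and 15712 genes tested. Total counts per library ran from 23870218 to 91765919 in C57BL/6 and from 34635202 to 78763549 in Nr3c1fl/fl livers. The members held a median of 0.708% (0.611% to 1.00%) and 0.379% (0.244% to 0.449%) of the gene counts, respectively. The 2 experiments differ in library chemistry, and no level is compared between them. The 9 hepatocyte markers, Alb among them, were tested in both experiments and none was at 0. The pancreas markers that passed the filter, 3 of 9 listed, summed to 248 CPM (counts scaled to a common library total) in unfed ZT18 replicate 3 and to 12.9 to 33.8 in the other 26 C57BL/6 libraries. Their mean log2 CPM was next highest, 3.15, in fed ZT14 replicate 1. Without these 2 libraries the counts below stayed within 1.5 times their value except where stated. A row for the 45S pre-ribosomal RNA, which had no gene and stayed out of all tests, took 0.0961% to 2.05% of a C57BL/6 library and 2.23% to 28.5% of an Nr3c1fl/fl library. Nr3c1 itself stood at 147 to 323 CPM in GFP livers (median 213) and at 102 to 201 in CRE livers (median 127). Each CRE library was below each GFP library at 6 of 6 times, and the log2 difference was -0.63 (SE 0.06, edgeR adjusted p = 1.85e-09), so Nr3c1 mRNA was reduced in whole liver and not absent.

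Ribosomal protein mRNAs were higher in fed than in unfed C57BL/6 liver. Averaged over ZT13, ZT14, ZT18 and ZT22, 44 of the 76 members rose and 0 fell with food (edgeR quasi-likelihood test, Benjamini-Hochberg adjusted over all genes), while 17.5% of all tested genes rose and 17.9% fell. The median log2 difference was 0.21 over the members and 0.01 over all genes. It was positive in 72 members, and the other 4, among them Rplp0 (-0.07), Rpl22 (-0.04) and Rps14 (-0.02), did not pass the test. The rise took in 16 of 30 small subunit and 28 of 46 large subunit genes. Removing any one library left 35 to 57 members called.

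**Figure D1:**
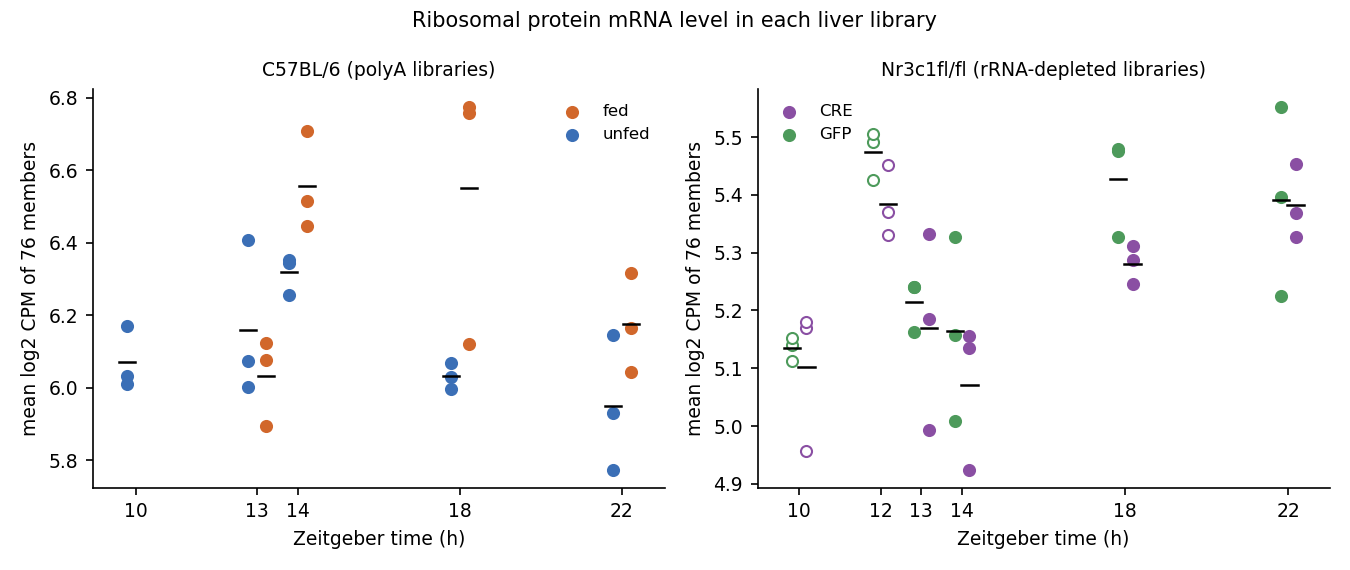
Mean log2 CPM of the 76 members in each library (points) against Zeitgeber time in hours, with group means as bars; left, C57BL/6 unfed and fed livers, right, Nr3c1fl/fl GFP and CRE livers with unfed groups as open points. At ZT18 fed replicates 1 and 2 (6.77 and 6.76) stand above the unfed libraries (6.00 to 6.07), and fed replicate 3 (6.12) lies just above them.

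The largest mean rise was that of Rps29, a small zinc-binding protein of the 40S head, with a log2 difference of 0.94 (SE 0.23, adjusted p = 0.00193). Rpl11, which with Rpl5 and the 5S RNA forms the particle that also binds Mdm2, rose by 0.71 (SE 0.16, adjusted p = 0.00145). Rpl41, a very short basic peptide between the subunits, rose by 0.57 (SE 0.11, adjusted p = 0.000343). Rpl35, at the rim of the exit tunnel, rose by 0.54 (SE 0.12, adjusted p = 0.000684). Rpl36a, near the exit site for tRNA, rose by 0.47 (SE 0.11, adjusted p = 0.00221) and Rpl12, at the base of the stalk, by 0.40 (SE 0.11, adjusted p = 0.00421).

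By place in the ribosome, 3 of the 4 genes of the stalk that recruits elongation factors rose on average: Rpl12, Rplp1 (0.21, adjusted p = 0.0361) and Rplp2 (0.21, adjusted p = 0.0276). Rplp0, which anchors them, did not pass the test. Both proteins of the 5S particle rose, Rpl5 by 0.32 (adjusted p = 0.0218). Of 8 genes of the exit tunnel and its rim 4 rose, Rpl35 and Rpl31 (0.29) among them, while Rpl4, which lines the tunnel, differed by 0.05 (adjusted p = 0.406) and Rpl39 by 0.29 (adjusted p = 0.151). Around the mRNA entry and decoding site 1 of 5 rose, Rps2 (0.20, adjusted p = 0.0176). There Rps3 differed by 0.03 (adjusted p = 0.627), Rps15 by 0.17 (adjusted p = 0.0507) and Rps6 by 0.24 (adjusted p = 0.108). At the mRNA exit side and platform 4 of 5 rose, among them Rpsa (0.38, adjusted p = 0.000995), Rps28 (0.33, adjusted p = 0.00825) and Rps26 (0.25, adjusted p = 0.00111). Rps27a, made as a fusion with ubiquitin, rose by 0.26 (adjusted p = 0.00594). These groups hold 2 to 8 genes and are described by their counts only, beside the 17.5% of all genes that rose. In either direction 35.4% of all genes were called. Leaving out single libraries ended the calls of Rplp1 (unfed ZT13 replicates 1 and 2, unfed ZT18 replicate 2, unfed ZT22 replicate 1, fed ZT13 replicate 1, fed ZT14 replicate 2, fed ZT18 replicates 1 and 2 and fed ZT22 replicate 2, adjusted p = 0.0536 to 0.0736), Rplp2 (unfed ZT22 replicate 1, adjusted p = 0.0525) and Rpl5 (fed ZT18 replicate 1, adjusted p = 0.0526).

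The difference was not the same at each hour. At ZT13, 1 h after dark, 0 members passed edgeR's test (1.1% of all genes did), and DESeq2 called 0. An unadjusted edgeR p under 0.05 was held by 1 member and by 1903 of the 14744 genes tested. The median of the members was -0.13, with 65 members negative, and it was 0.01 without unfed ZT13 replicate 3. A set of 3 members (Rpl39, Rps23 and Rps27a) was lower without overlap between the 3 fed and 3 unfed libraries (9.24% of all genes) and 0 higher (8.15%). At ZT14, 5 members rose and 0 fell (2.26% and 3.38% of all genes, 5.64% in all), with a median of 0.17. At ZT18, 51 rose and 0 fell (13.3% and 13.1% of all genes, 26.4% in all), with a median of 0.51. At ZT22, 11 rose and 0 fell (10.5% and 9.77%, 20.2% in all), with a median of 0.24. A test of the difference between hours called 15 members, against 8.1% of all genes. These were Rpl5, Rpl11, Rpl15, Rpl21, Rpl30, Rpl36a, Rpl37a, Rplp1, Rps13, Rps20, Rps23, Rps25, Rps26, Rps27a and Rps29. DESeq2 called 39 members, for which its share of all genes is not given here. The count was 7 without the 2 libraries of highest mean pancreas marker level. It was 44 without fed ZT18 replicate 3 and 27 without unfed ZT13 replicate 1. It was 6 to 9 without any one of unfed ZT13 replicate 3, fed ZT13 replicates 2 or 3, unfed ZT18 replicates 1, 2 or 3, and fed ZT18 replicates 1 or 2. Unfed ZT13 replicate 3 had a mean member level of 6.41, against 6.00 and 6.07 in the other unfed ZT13 libraries.

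**Figure D2:**
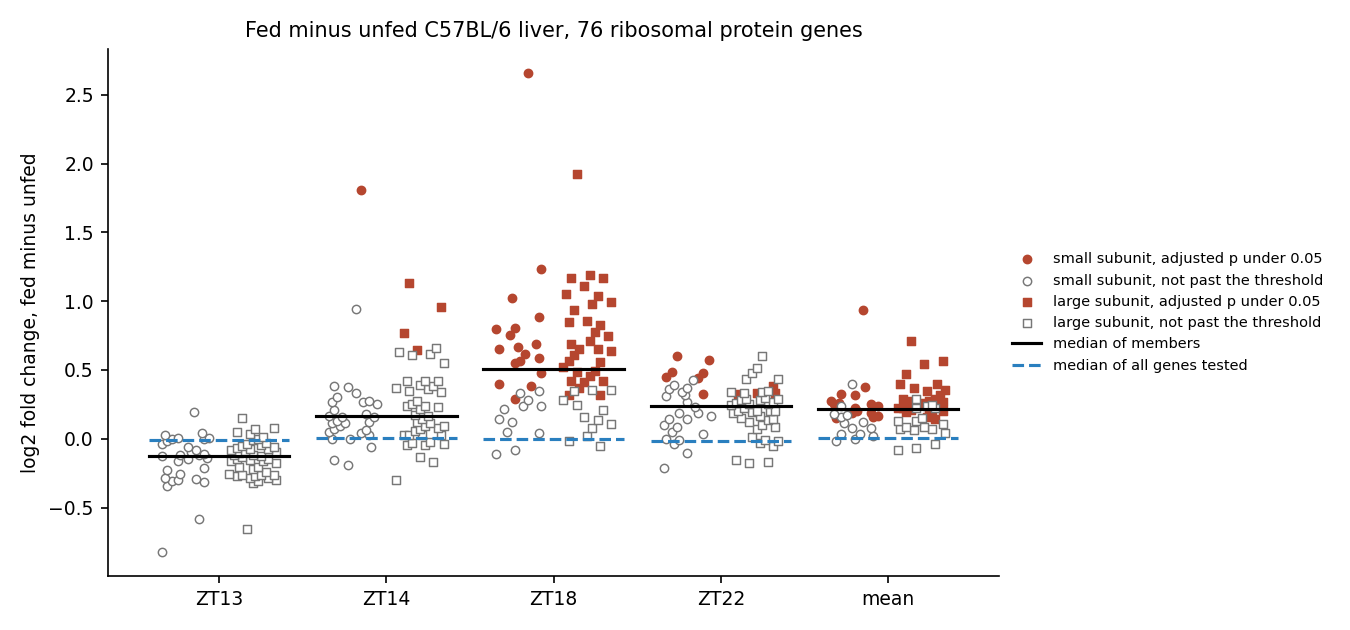
Log2 fold change, fed minus unfed C57BL/6 liver, of each of the 76 members at ZT13, ZT14, ZT18, ZT22 and on average; circles are small subunit genes, squares large subunit genes, filled symbols have an adjusted p under 0.05, and lines mark the median of the members (black) and of all tested genes (dashed). Filled symbols number 0, 5, 51, 11 and 44 from left to right, all above zero.

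At ZT14 the 5 members were Rps29, Rpl11, Rpl36a, Rpl31 and Rpl27, 1 small and 4 large subunit genes. Rps29 stood at 19.3, 24.8 and 17.9 CPM in the fed livers and at 5.23, 4.47 and 7.73 in the unfed livers, so every fed library was above every unfed one (log2 difference 1.81, SE 0.45, adjusted p = 0.016). Rpl11 stood at 76.02, 111 and 81.2 CPM fed and at 37.6, 37.0 and 47.8 unfed, again without overlap (1.13, SE 0.33, adjusted p = 0.0434). Rpl36a read 29.7, 35.8 and 28.4 CPM fed and 16.1, 14.3 and 17.7 unfed (0.96, SE 0.23, adjusted p = 0.0133). Rpl31 and Rpl27 rose by 0.77 (adjusted p = 0.0277) and 0.64 (adjusted p = 0.00896). In 31 members the fed libraries lay above the unfed ones without overlap (12.8% of all genes) and in 3 below (Rpl18 and Rplp0 among them; 14.9%). The 5 calls moved when 1 library was left out: the count was 0 without unfed replicate 2, 1 without unfed replicate 1, 1 without fed replicate 2 and 3 without unfed replicate 3. Rpl11 lost its call with each of the 6 ZT14 libraries left out (adjusted p = 0.0648 to 0.147). It also lost its call without the 2 libraries of highest mean pancreas marker level (adjusted p = 0.0706). Rps29 lost it without unfed replicate 1 or 2 or fed replicate 2 (adjusted p = 0.0771, 0.0858 and 0.0506), as did Rpl36a (0.0533, 0.0708 and 0.0522) and Rpl31 (0.0884, 0.102 and 0.119), the last also without unfed replicate 3 (0.0668). Rpl27 lost it without unfed replicate 2 (0.0624). Fitting only the ZT14 groups called 25 members and DESeq2 9, with their shares of all genes not given here.

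At ZT18, 6 h into the night, Rps29 stood at 32.1, 25.6 and 5.20 CPM in the fed livers and at 3.18, 3.56 and 3.21 in the unfed livers. Fed replicates 1 and 2 were far above fed replicate 3, which was still above the unfed libraries (log2 difference 2.66, SE 0.46, adjusted p = 0.000117). Rpl11 stood at 179.7, 143 and 33.8 CPM fed and at 30.4, 30.7 and 32.8 unfed (1.92, SE 0.33, adjusted p = 0.00013). Rpl41 read 173, 133 and 59.0 CPM fed and 56.2, 54.1 and 51.9 unfed (1.17, SE 0.23, adjusted p = 0.000461). The same order of libraries held for all 3: fed replicates 1 and 2 high, fed replicate 3 next to the unfed range. Rpsa, the laminin receptor homologue at the mRNA exit side, read 268, 255 and 133 CPM fed against 130.5, 125 and 121 (0.80, SE 0.17, adjusted p = 0.00101). Rpl5 read 110.2, 87.2 and 38.8 fed against 37.8, 34.6 and 42.4 (1.04, SE 0.22, adjusted p = 0.00079), so its fed replicate 3 lay inside the unfed range. Rps6, whose protein is phosphorylated by S6 kinase after a meal, read 94.8, 84.2 and 42.8 fed against 38.5, 42.4 and 39.3 (0.88, SE 0.22, adjusted p = 0.00469).

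Further large rises at ZT18 were those of Rps13 (1.23, adjusted p = 0.00606), Rpl35 (1.19, adjusted p = 0.000499), Rpl36a (1.17, adjusted p = 0.000418), Rpl39 (1.11, adjusted p = 0.00857) and Rpl12 (1.00, adjusted p = 0.00105). Beside the 13.3% of all genes that rose at ZT18, 3 of the 4 stalk genes rose, Rplp1 by 0.69 and Rplp2 by 0.45 besides Rpl12, as did both of the 5S particle. Of the tunnel group 6 of 8 rose, and 4 of 5 at the exit side and platform, with Rps28 at 0.62 and Rps26 at 0.48. Of the entry and decoding group 2 of 5 rose, Rps6 and Rps23 (0.67, adjusted p = 0.00562), while Rps15 differed by 0.34 (adjusted p = 0.0621), Rps2 by 0.33 (adjusted p = 0.0631) and Rps3 by 0.14 (adjusted p = 0.31). Rps27a rose by 0.80. In all 18 of 30 small and 33 of 46 large subunit genes rose.

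Other members were nearly level at ZT18. Rplp0, often used as a reference gene, read 229, 265 and 252 CPM in fed and 261, 258 and 255 in unfed ZT18 livers (-0.05, SE 0.08, adjusted p = 0.699). Over all 27 libraries it stayed between 229 and 280.3 CPM. Rpl4 read 447, 471 and 421 fed against 395, 430.0 and 416 unfed (0.11, SE 0.08, adjusted p = 0.335). In all 4 members had negative differences at ZT18, Rps7 (-0.08) and Rplp0 among them, and none passed the test.

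**Figure D3:**
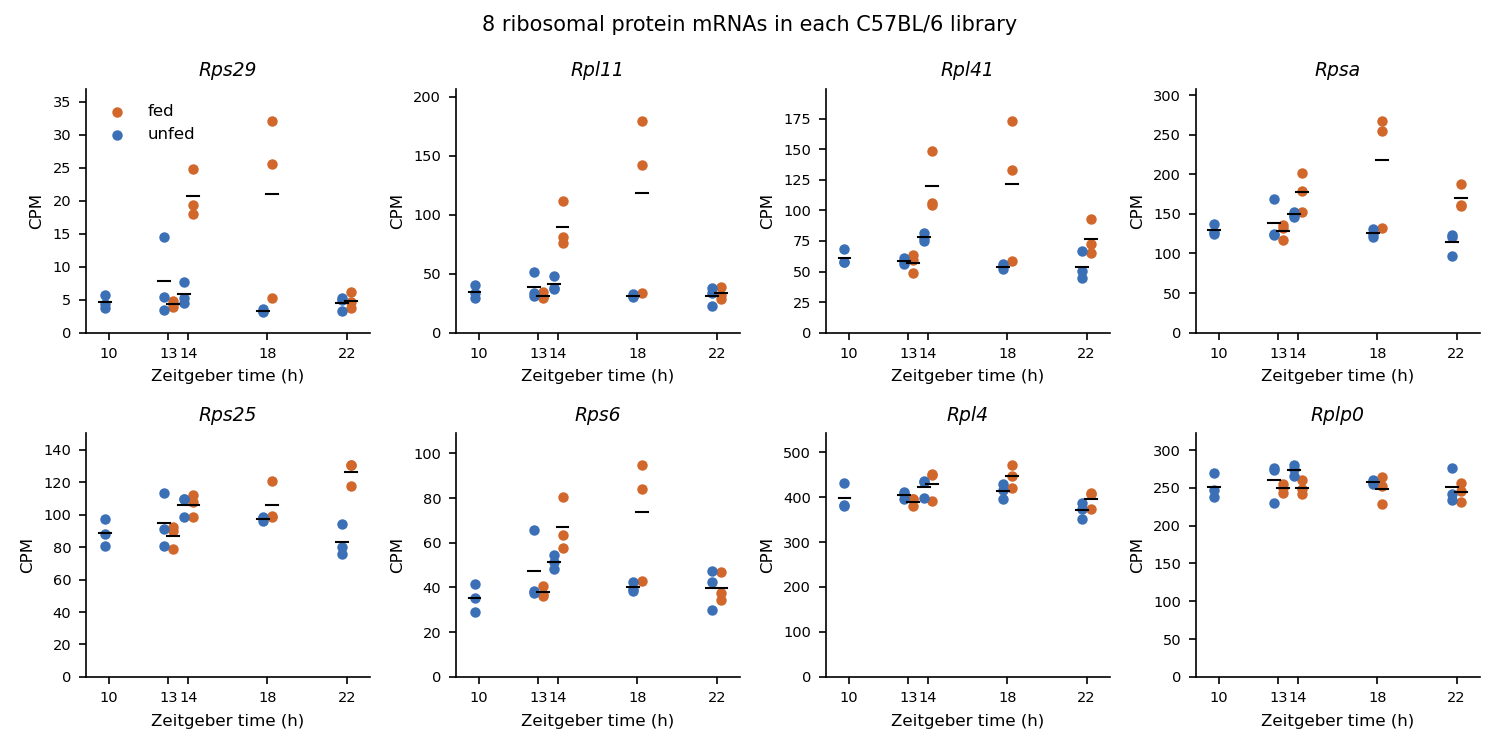
CPM of 8 members in each of the 27 C57BL/6 libraries (points, unfed and fed) against Zeitgeber time in hours, with group means as bars; each panel has its own axis from 0. Rps29, Rpl11, Rpl41, Rpsa and Rps6 are high in 2 of the 3 fed ZT18 libraries, Rps25 has its highest group mean in fed ZT22 livers, and Rpl4 and Rplp0 stay nearly level.

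The ZT18 result leans on fed replicates 1 and 2. Leaving out replicate 1 left 27 members called, leaving out replicate 2 left 32, and leaving out replicate 3 gave 58. The difference of Rps29 ranged from 2.22 to 3.10 and that of Rpl11 from 1.51 to 2.35 with 1 fed ZT18 library left out. Without replicate 1, Rpl39, Rps13, Rps6, Rps28 and Rplp2 no longer passed the test (adjusted p = 0.0715, 0.0538, 0.0533, 0.1 and 0.12). Without replicate 2, Rpl39 and Rplp2 did not (adjusted p = 0.0598 and 0.0726). Rplp2 also lost its call without unfed replicate 2 or 3 (adjusted p = 0.0775 and 0.0603). Without the 2 libraries of highest mean pancreas marker level it and Rps28 also missed the threshold (adjusted p = 0.0642 and 0.0509). Then 41 members were called. Fed libraries lay above unfed ones without overlap in 37 members (19.7% of all genes) and below in 0 (20.2%).

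Other quantities moved with these libraries. The 3 highest mean member levels were those of fed ZT18 replicates 1 and 2 (6.77 and 6.76) and fed ZT14 replicate 2 (6.71). The same 3 libraries had the highest mean log2 CPM of 71 respiratory chain subunits (6.92, 6.87 and 6.86, with 6.71 next), and fed ZT18 replicate 3 stood at 6.53, against 6.36 to 6.53 in unfed ZT18 livers. The 45S row held 0.846%, 1.117% and 0.821% of the counts of these 3 libraries and 0.132% in fed ZT18 replicate 3. It also held 1.74% in unfed ZT10 replicate 1, whose member level was 6.03, and 2.05% in unfed ZT13 replicate 3 with 6.41. Of 10 endothelial markers, all detected, 9 fell at ZT18 (13.1% of all genes fell), with a mean log2 CPM of 4.53 to 4.64 and a summed level of 280 to 299 CPM in the 3 fed livers against 5.03 to 5.14 and 386 to 419 in the unfed ones. In fed replicate 3, with member levels next to the unfed range, these markers were as low as in the other 2. Of 11 Kupffer cell markers 0 were called (median -0.17), and of 9 hepatocyte markers 1 rose and 3 fell. The part of these quantities in the member result was not tested.

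**Figure D4:**
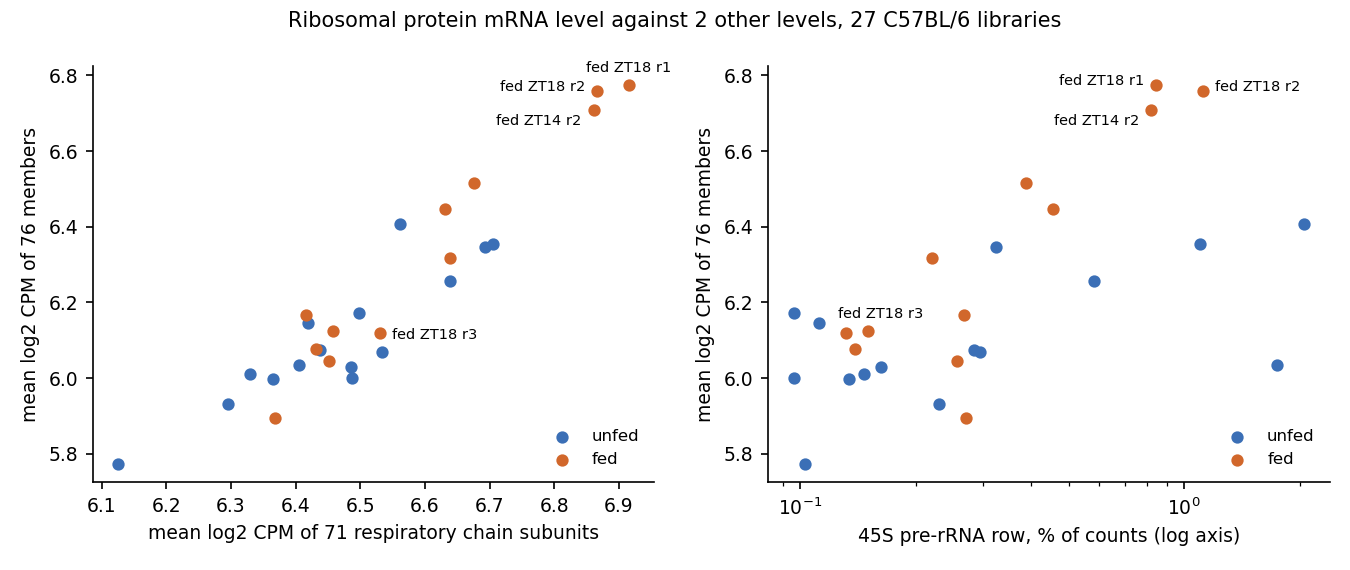
Mean log2 CPM of the 76 members in the 27 C57BL/6 libraries against the mean log2 CPM of 71 respiratory chain subunits (left) and against the percent of counts on the 45S pre-rRNA row, on a log axis (right), with the 3 fed ZT18 libraries and fed ZT14 replicate 2 labelled. Fed ZT18 replicates 1 and 2 are at the top in both panels, and on the right the 2 libraries with the highest 45S shares (1.74% and 2.05%) have lower member levels.

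At ZT22, near the end of the night, 7 of 30 small subunit and 4 of 46 large subunit genes rose (10.5% of all genes), with medians of 0.25 and 0.23 over the 2 subunits. Rps25, which some viral RNAs need to bind the 40S subunit, read 118, 130.5 and 131 CPM in fed and 75.6, 94.4 and 80.0 in unfed livers, without overlap (log2 difference 0.60, SE 0.11, adjusted p = 0.000346). At ZT18 it had read 98.8, 121 and 99.0 fed against 98.5, 96.4 and 97.8 (0.12, adjusted p = 0.459), and the difference between hours passed its test (adjusted p = 0.015, or 0.0511 without unfed ZT22 replicate 3). Rpsa read 161, 187 and 161 CPM fed and 97.4, 121 and 123.2 unfed (0.57, SE 0.17, adjusted p = 0.0169). Rps19, mutated in Diamond-Blackfan anaemia, rose by 0.48 (adjusted p = 0.00125), as did Rps26 (0.48, adjusted p = 0.0032). Rps24 rose by 0.45 (adjusted p = 0.00488) and Rps2 by 0.44 (adjusted p = 0.0177). The large subunit genes were Rpl36 (0.38), Rpl6, Rpl13 and Rpl32 (0.33 each). Rps29 and Rpl11, the largest risers at ZT18, differed by 0.10 (adjusted p = 0.914) and 0.08 (adjusted p = 0.899). At the exit side and platform 3 of 5 rose, and 0 of 8 in the tunnel group. Fed libraries lay above unfed ones without overlap in 21 members (16.6%) and below in 0 (16.3%). The count was 4 without unfed replicate 1, 5 without unfed replicate 3, 5 without fed replicate 2 and 20 without unfed replicate 2. Rpsa lost its call without unfed replicate 1 or fed replicate 2 (adjusted p = 0.0848 and 0.0746), and Rps2 without unfed replicates 1 or 3 or fed replicates 1 or 2 (adjusted p = 0.061 to 0.104).

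Members can be set beside each other by their start sequence. The 15 members with a run of C or T from the annotated start had a median ZT18 difference of 0.56 (12 rose). The other 41 with a promoter had 0.48 (26 rose), and the 20 without a promoter entry, Rps29 among them, 0.45 (13 rose). Of all tested genes 13.3% rose at ZT18. Rpl11, with the second largest difference, has an A at its annotated start, and its run of C or T lies downstream. Whether the mRNAs begin at the annotated starts was not tested. These medians were not tested against each other.

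Other genes, of the pathway and outside it, were counted as whole lists, which were chosen with earlier results of these data known. The respiratory chain subunits are not genes of the pathway and were listed as short mRNAs coded in the nucleus. The genes named from each list are among the 3 with the smallest p in a comparison. Of 78 mitochondrial ribosomal proteins 40 rose and 2 fell on average with food (17.5% and 17.9% of all genes), with a median of 0.16. Mrps27, a small subunit protein of the mitochondrial ribosome, rose by 0.69 (adjusted p = 1.08e-10) and by 1.31 at ZT18 (adjusted p = 7.02e-10). Of 71 respiratory chain subunits 26 rose and 0 fell, with a median of 0.13. Their ZT18 counts were 34 and 0, with a median of 0.32 and Cox7c, a small subunit of complex IV, at 1.30 (adjusted p = 0.000431). Of 17 elongation factors and other mRNAs known for a TOP element, 2 rose and 4 fell, with a median of 0.00. Among the latter were Eif4b (-0.63, adjusted p = 1.07e-09), which helps unwind mRNA, the poly(A)-binding protein Pabpc1 (-0.29, adjusted p = 7.43e-07) and the translocation factor Eef2 (-0.36, adjusted p = 3.83e-05). Of 24 ribosome biogenesis genes 8 rose and 3 fell: Bysl (0.42, adjusted p = 4.53e-05) and Nhp2 (0.29, adjusted p = 0.00032), which help build the 40S subunit and modify rRNA, rose, and Npm1 fell (-0.27, adjusted p = 0.000475). At ZT18 Dkc1, the rRNA pseudouridine synthase, rose by 0.81 (adjusted p = 0.000205) and the box C/D protein Nop56 by 0.70 (adjusted p = 0.0062). Of 22 genes of mTORC1 and translation control 1 rose and 10 fell. Those with the smallest p were Sesn2, an inhibitor upstream of mTORC1 (-1.35, adjusted p = 1.7e-11), Maf1, a repressor of RNA polymerase III (-0.65, adjusted p = 3.02e-08), and Tsc1, also an inhibitor upstream (-0.23, adjusted p = 0.000263).

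Ribosomal proteins whose symbols lie outside the rule were tested as 11 genes. On average 3 rose and 0 fell (17.5% and 17.9% of all genes), the near copies Rpl7l1 (0.35, adjusted p = 9.86e-07), Rpl36al (0.23, adjusted p = 0.00296) and Rps27l (0.19, adjusted p = 0.0179). At ZT18 6 rose and 0 fell (13.3% and 13.1% of all genes), among them Rps3a1 (0.50, adjusted p = 0.00292) and Fau (0.54, adjusted p = 0.0089), the fusion that yields Rps30.

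In unfed C57BL/6 livers alone, 13 members differed among ZT10, ZT13, ZT14, ZT18 and ZT22, against 42.5% of all genes, a share of the members below the background. Among those with the smallest p were Rpl3 (adjusted p = 0.00749), Rps14 (0.0142), Rpl7 (0.0243) and Rpl10 (0.027). Rpl3, which lies close to the site where amino acids are joined, read 112, 114 and 109.8 CPM at ZT14, 81.6, 74.3 and 77.98 at ZT18 and 52.03, 80.8 and 65.8 at ZT22, so the ZT14 libraries stood above both. The ZT14 mean was the highest of the 5 for 66 members and the ZT22 mean the lowest for 55. The count was 3, 5 and 7 without unfed ZT14 replicate 1, 2 or 3, 5 without unfed ZT22 replicate 1 and 22 without unfed ZT22 replicate 2. It was 8 without the 2 libraries of highest mean pancreas marker level. In fed livers 53 members differed among ZT13, ZT14, ZT18 and ZT22, against 37.2% of all genes, led by Rpl36a (adjusted p = 1.99e-05), Rps27a (2.77e-05), Rpl11 (3.75e-05), Rpl5 (6.92e-05), Rps29 (7.72e-05) and Rps23 (0.000114). ZT13 was lowest for 62 members, and ZT14 or ZT18 highest for 33 and 37.

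CRE and GFP livers differed little in ribosomal protein mRNAs. Averaged over the 6 times, 0 members rose and 2 fell in CRE livers, against 7.92% and 6.64% of all genes. Of all genes 14.6% were called. The median was -0.07 over the members and -0.00 over all genes, or 0.04 and 0.10 with library totals in place of the trimmed (TMM) scaling factors. With TMM 72 of 76 members were negative, while 48.7% of all genes were positive. Of the members 18 had an unadjusted edgeR p under 0.05, as did 4090 of the 15712 genes tested. Rps21, which binds Rpsa on the 40S subunit, read 36.3, 40.4 and 41.96 CPM in GFP and 35.7, 31.5 and 33.7 in CRE livers at ZT12, without overlap. At ZT18 it read 44.998, 33.4 and 32.4 against 26.9, 32.5 and 31.8, where the groups overlapped. Its mean log2 difference was -0.18 (SE 0.06, adjusted p = 0.0341). With library totals 0 members were called and Rps21 stood at -0.07. DESeq2 called 4 members, Rps21, Rpl6 and Rps23 among them.

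The other members reached from Rps10 at -0.22 (adjusted p = 0.0749) to Rpl23a at 0.06. Rps6 differed by -0.14 (adjusted p = 0.0964), Rps3 by -0.11 (adjusted p = 0.0904), Rpl11 by -0.06 and Rplp0 by -0.04, none past the test. The 2 calls are fragile: in 19 of 36 fits without 1 library the count moved by over 1.5 times. It was 0 without GFP ZT12 replicate 2, GFP ZT12 replicate 3, CRE ZT13 replicate 3, GFP ZT18 replicate 1 or GFP ZT22 replicate 2. It was 4 without GFP ZT13 replicate 3 or CRE ZT13 replicate 1, 6 without GFP ZT14 replicate 1 and 8 without GFP ZT22 replicate 3. It was 1 without GFP ZT10 replicates 1 or 3, CRE ZT10 replicate 1, CRE ZT12 replicates 2 or 3, GFP ZT14 replicate 3, CRE ZT14 replicate 1, CRE ZT18 replicate 1, GFP ZT22 replicate 1 or CRE ZT22 replicate 3. Rps21 lost its call in 14 of these fits. The 45S row held 23.8% to 28.2% of the counts of GFP and 8.0004% to 28.5% of CRE libraries at ZT10, and 4.52% to 24.5% and 3.62% to 7.38% at ZT12. Without the 6 libraries over 20%, averaged over the times that keep both viruses, the median was -0.08 and Rps21 stood at -0.21. This mean lacks ZT10, where all 3 GFP libraries are over 20%, and at ZT12 it rests on 1 GFP library, replicate 3.

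At single times 0 members passed edgeR's test in CRE against GFP livers, at ZT10 (0.694% of all genes called), ZT12 (3.75%), ZT13 (5.04%), ZT14 (1.57%), ZT18 (0.102%) and ZT22 (0.146%). An unadjusted p under 0.05 was held by 4, 5, 1, 9, 13 and 0 members in that order. Among the 15712 genes tested it was held by 1751, 2203, 2818, 2026, 1281 and 1706. DESeq2 gave 0 at each but ZT12, where it called 1, Rps15a. The medians were -0.03, -0.09, -0.04, -0.08, -0.14 and -0.03. With library totals those at ZT10 and ZT12 turned to 0.29 and 0.25, as the medians of all genes moved to 0.33 and 0.34, and the other 4 stayed negative. With 1 library left out the median turned positive at ZT10 (0.03 without CRE replicate 3), ZT13 (0.02 without CRE replicate 3) and ZT22 (0.06 without GFP replicate 2 and 0.01 without CRE replicate 2). It ran from -0.14 to -0.00 at ZT14, and stayed between -0.12 and -0.06 at ZT12 and between -0.19 and -0.12 at ZT18. Lower without overlap in CRE livers were 9 members at ZT10 (7.55% of all genes), 15 at ZT12 (11%), 5 at ZT13 (10.9%) and 7 at ZT14 (9.52%), and higher 2 (8.28%), 0 (11.9%), 1 (9.66%) and 1 (8.95%). The higher ones were Rpl17 and Rplp2 at ZT10, Rpl23a at ZT13 and Rps19 at ZT14. At ZT18 24 members were lower in CRE livers without overlap (8.55% of all genes) and 3 higher (Rps15a, Rps25 and Rps27; 7.69%). Rpl11 read 24.999, 25.5 and 20.1 CPM in GFP and 17.2, 17.4 and 18.97 in CRE livers there, with every CRE library below every GFP library. At ZT22 0 were lower (6.13%) and 3 higher (Rpl11, Rpl15 and Rpl35a; 6.32%). The test of a difference between times called 0 members (0.687%) by edgeR and 0 by DESeq2. By edgeR 2 members had an unadjusted p under 0.05, as did 1702 of the 15712 genes tested. The smallest p of a member was that of Rpl5 (0.00866, adjusted p = 0.248). Without CRE ZT12 replicate 1 the ZT12 count was 2, Rpl5 and Rps15a.

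**Figure D5:**
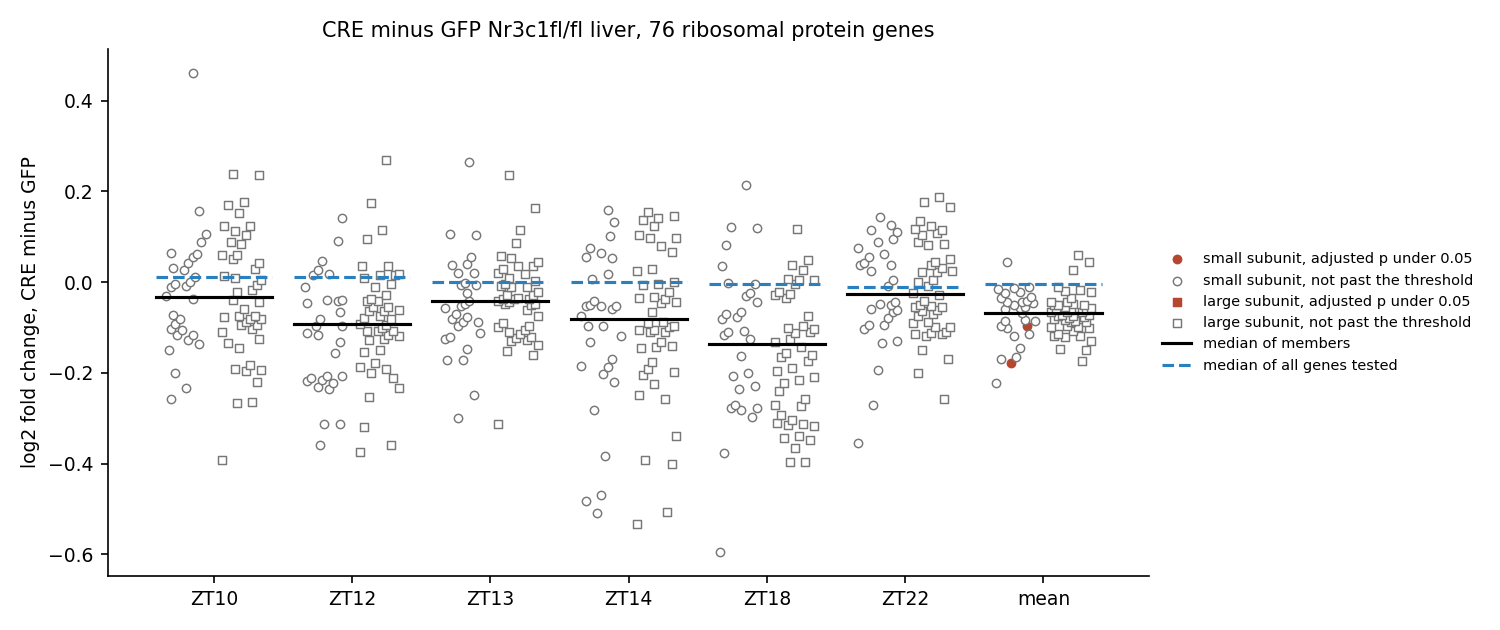
Log2 fold change, CRE minus GFP Nr3c1fl/fl liver, of each of the 76 members at 6 times and on average; circles are small subunit genes, squares large subunit genes, filled symbols have an adjusted p under 0.05, and lines mark the median of the members (black) and of all tested genes (dashed). The 2 filled symbols, Rps21 among them, stand in the column of means, and the lowest median of the members is the -0.14 at ZT18 (-0.09 with library totals).

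The time course of the members passed the test in both kinds of Nr3c1fl/fl liver: 54 members in GFP livers (46.9% of all genes) and 46 in CRE livers (41.5%). In GFP livers Rps27 (adjusted p = 0.000434), Rpl21 (0.000514), Rpl41 (0.00055), Rps23 (0.00102), Rpl17 (0.00141) and Rpl35 (0.0017) had the smallest p. In CRE livers these included Rpl21 (4.76e-05), Rpl41 (5.59e-05), Rpl17 (0.000274), Rpl27 (0.000809) and Rps24 (0.00168). Rpl41 read 23.9, 29.6 and 27.1 CPM in GFP livers at ZT10, 25.4, 31.9 and 25.6 at ZT14 and 38.3, 52.6 and 48.4 at ZT22. In CRE livers it read 24.6, 27.04 and 24.4, then 19.7, 29.1 and 29.3, and 56.0, 46.1 and 49.9. Its ZT22 libraries were above those of ZT10 and ZT14 with either virus. ZT12, the last unfed time, had the highest mean for 43 members in GFP and for 43 in CRE livers. The lowest was ZT10 for 41 and ZT14 for 22 in GFP livers, and ZT10 for 28 and ZT14 for 35 in CRE livers. The pre-ribosomal RNA row held over 20% of the counts of every GFP library at ZT10 (23.8% to 28.2%). It also did so in CRE ZT10 replicate 1 (28.5%) and in GFP ZT12 replicates 1 and 2 (22.9% and 24.5%). The TMM factors of the GFP ZT10 libraries were 0.70 to 0.77, against 0.94 to 1.17 in fed GFP livers. Without the libraries over 20% GFP livers have no ZT10 group. The part of this row in the time course was not tested. Without CRE ZT22 replicate 1 the count of members that passed the time test in CRE livers was 29.

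Of the other gene lists in CRE livers, 0 biogenesis genes rose and 5 of 24 fell (7.92% and 6.64% of all genes), among them the RNA polymerase I subunit Polr1a (-0.23, adjusted p = 0.00042), Polr1c (-0.27, adjusted p = 0.00642) and Nop56 (-0.25, adjusted p = 0.0321). Of the mTORC1 and translation control genes 1 rose and 4 fell. These included Eif4ebp3, a repressor of cap-dependent translation (-2.78, adjusted p = 7.49e-16), the mTORC1 inhibitor Ddit4 (-0.76, adjusted p = 0.0037) and Eif4ebp1 (-0.24, adjusted p = 0.0128). Of the elongation and TOP list 0 rose and 3 of 17 fell: Pabpc1 (-0.11), Nap1l1 (-0.19) and Eef1d (-0.14). Mitochondrial ribosomal proteins rose in 3 and fell in 5 of 78, and respiratory chain subunits in 0 and 3 of 71. Of the 9 hepatocyte markers 5 fell, and of the 10 endothelial markers 0 were called.

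Glucocorticoid receptor binding, mapped by chromatin immunoprecipitation in unfed liver at ZT10, was given as 3 peak lists. The first 2 belong to C57BL/6 samples. The last belongs to an Nr3c1fl/fl sample given AAV-tbg-CRE, titled LGRKO, which by the list's name was the control, and the sources do not say which ChIP it was set against. In the list found in both replicates a peak lay within 1000 bases of the start of 1 of 56 members (1.79%) and of 2.93% of other tested genes. The member was Rpl28, with a peak at chr7:4792500-4792708 (mm10), 257 bases from its start. Within 5000 bases the shares were 5.36% and 7.54%, and within 25000 bases of the gene interval 17.1% of 76 members and 29.5%. In the larger list called against input, the shares within 1000 bases were 10.7% (6 members) and 11.7%. In the list named for the knockout as control they were 33.9% (19 members) and 26.0%. The lists give no peak height, and these shares were not tested.

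Members also varied together between replicates of a group. Around the group means of the C57BL/6 livers the SD of log2 CPM had a median of 0.203 over the members, from 0.0767 to 0.644, with Rps29 and Rpl11 at the upper and Rpl4 and Rplp0 at the lower end. Without the ZT18 groups the SD of Rpl11 was 0.278 in place of 0.500, below that of Rps13 (0.408), and Rps29 stood at 0.494. Over all groups a single axis held 75.3% of the within-group variance of the members. This share was 24.7% for the 78 mitochondrial ribosomal proteins and 60.4% for the respiratory chain subunits. In Nr3c1fl/fl livers the shares were 48.7%, 21.4% and 54.1%, and the median SD of the members was 0.156. Members that spread more between replicates at the other hours also differed more with food at ZT18. Spearman's rho was 0.75 across the 76 members, which share their libraries and their depth and are not independent replicates. The within-group SDs of the 2 experiments, which share no library, ranked alike only in part (rho 0.43 across the 76 members).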

How the data were processed

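RNA of 27 C57BL/6 and 36 Nr3c1fl/fl mouse livers was sequenced, and glucocorticoid receptor binding was mapped in liver chromatin at ZT10. The authors deposited raw counts, with a row for each RefSeq transcript. The submitters' processing notes name STAR, HOMER, DESeq2, mm10 and rn5 only. On strand and on reads that fit several places they say nothing, so both are not given here. Ribosomal protein genes have many near-identical processed pseudogenes, so members may have lost or gained reads to these copies, and overlapping or antisense genes cannot be told apart. Of counts from 1 to 10, 75.7% to 85.1% per library are even. The authors' peak lists hold positions only (deposited without score), and starts were read as counting from 0.

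Of 40458 rows, 40219 matched a gene by accession (RefSeq, GRCm38.p6). Per gene the row with the highest total stood, also for the 18 members with several of the 119 member rows. Unmatched rows, 0.308% to 2.24% and 2.43% to 28.6% of counts, stayed out of library sizes and tests. Counts were fitted once per experiment in R 4.3.3 with edgeR 4.0.16 (TMM, filterByExpr, quasi-likelihood F-test), and adjusted p-values (Benjamini-Hochberg over all tested genes) under 0.05 were called. Unless DESeq2 is named, adjusted p-values are edgeR's. SE is the size of the log2 difference over the square root of F, and CPM uses TMM-scaled totals of tested genes. Scripts were tested on simulated data. Replicates differed by more than the sampling noise of independently counted reads (lowest chi-square per gene 3.51, unfed ZT14 replicates 1 and 2). Because most small counts were even, the margin over sampling noise is not known. DESeq2 1.42.0, other scaling factors, no filter, other member rows, only the compared groups, a replicate block and leaving out libraries were alternatives. Their member counts are given without the share of all genes called in the same setting.

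Named are, per comparison, up to 6 members with the largest rise and 6 with the largest fall among those called, or the 6 smallest p in F-tests, 16 members fixed by name, and up to 3 genes per other list with the smallest p. Rpl31, Rpl27, Rps7, Rpl22, Rps14, Rps10, Rpl23a and Rpl28, the members listed in a count, and the libraries described as apart were chosen after their values were seen. A part of the naming rule that needs transcript lengths was not used here. Members and lists were chosen with earlier results of these data known. The rat cultures of the series were not used here, and some members and genes are not reported here by name.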

Additional observations from a re-analysis of the deposited data

Results flagged for a closer look

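The fed minus unfed difference of 15 members varied with the hour in C57BL/6 liver, by edgeR's test of the difference between ZT13, ZT14, ZT18 and ZT22. Among the 6 with the smallest p, Rps29 had an adjusted p of 0.00237. Rpl36a (adjusted p = 0.00838), Rpl11 (adjusted p = 0.00874), Rps27a (adjusted p = 0.0091) and Rpl5 (adjusted p = 0.0144) were also highest at ZT18, whereas Rps25 (adjusted p = 0.015) differed most at ZT22. Their values and the libraries on which they rest are given above.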

How the results depend on the processing

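Counts of called members moved by over 1.5 times in these settings. Fitting only the compared groups gave 25 at ZT14, 7 at ZT22, 25 for unfed livers over time and 35 for GFP livers over time. DESeq2 gave 9 at ZT14, 39 for the difference between hours, 21 for unfed livers over time, 4 for the CRE minus GFP mean and 1 at ZT12. Without the 2 libraries of highest mean pancreas marker level the difference between hours gave 7 and unfed time 8. Library totals without TMM factors gave 6 for unfed time and 0 for the CRE mean. For the CRE mean no filter gave 1, and relative log expression factors gave 1 at ZT12. The CRE mean without libraries over the 45S limit rests on 1 GFP library at ZT12 and is described above by its median only. The cause was not tested. The share of all genes called in each setting is not given here, so a moved count is not read as particular to the members. With 1 library left out the counts ranged 35 to 57 (fed mean), 0 to 0 (ZT13), 0 to 4 (ZT14), 27 to 58 (ZT18), 4 to 20 (ZT22), 6 to 44 (between hours), 3 to 22 (unfed time), 42 to 60 (fed time), 0 to 8 (CRE mean), 0 to 2 (CRE at ZT12), 0 at the other 5 CRE times and between them, 37 to 65 (GFP time) and 29 to 48 (CRE time). Of single named members, 2228 alternatives gave the same call, 10 lost it, 19 gained it and 0 turned a called sign. With 1 library left out 2726 kept the call, 65 lost it and 23 gained it. Replicate numbers did not pair the samples: same-numbered deviations correlated at -0.04 to 0.08 in C57BL/6 (0 of 12 over 0.1) and -0.14 to 0.13 in Nr3c1fl/fl livers (3 of 18), with 4 of 12 and 9 of 18 best with their own number. With a replicate block the counts were 42 (fed mean), 0, 4, 52 and 13 by hour, 16, 19 and 57 for the 3 further C57BL/6 tests, 4 for the CRE mean, 0 at each CRE time, and 56 and 44 over GFP and CRE time. In the 150 bases up to the start the motif shares of members and of other genes were 25% and 10.6% (ETS), 1.79% and 2.31% (YY1, above the other genes in the longer window and below them here), 1.79% and 5.93% (E-box) and 37.5% and 50.6% (GC box). Peaks within 1000 bases were near 10.7% of members and 11.7% of other genes against input and 33.9% and 26.0% with the knockout as control, and within 5000 bases 26.8% and 26.0%, and 42.9% and 36.8%. The longest transcript per gene, planned as an alternative, was not run, because no transcript lengths were at hand. Rps29, the member with the fewest C57BL/6 counts (5777), also had the largest SD within the C57BL/6 groups (0.644), each of 3 libraries. The part of depth in this spread was not tested.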
